A study of Mus musculus with 4 samples.

Results

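The binding of Gata4 near 10 genes of the T-box family was examined in WT Flk1(+) and DKO Flk1(+) mesoderm cells. The genes were *T*, *Eomes*, *Tbx6*, *Tbx5*, *Tbx20*, *Tbx2*, *Tbx3*, *Tbx1*, *Tbx18* and *Tbx4*, taken by name as the family members known for mesoderm and heart formation, out of 22238 protein-coding symbols in the mm9 annotation. Every Gata4 peak whose position lay in one of these genes or within 50 kb of it was kept, which gave 53 of the 20410 WT peaks and 34 of the 22733 DKO peaks. Of these, 22 WT and 20 DKO peaks lay within 5 kb of the gene, and the gene names in the deposited lists marked as many for each of the 10 genes.

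T-box factors share a DNA-binding domain and read related short sequences. *T* and *Eomes* act in the primitive streak, where mesoderm and endoderm form, and *Tbx6* acts in the paraxial mesoderm that gives the somites. In the heart, Tbx5 and Tbx20 work on muscle genes together with Gata4 and Nkx2-5, Tbx2 and Tbx3 hold back these genes in the atrioventricular canal and the conduction system, Tbx1 acts in the outflow tract progenitors, Tbx18 acts in the sinus venosus and the epicardium, and Tbx4 is best known from the hindlimb and lung.

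Gata4 ChIP-seq with a mixture of 3 antibodies was performed on 4 libraries, 1 for each condition, so that no value below has a replicate and no test between WT and DKO cells was possible. WT and DKO (*Dnmt3a*-/-*Dnmt3b*-/-) ES cells of the J1 line, from the 129 background, carried Gata4GR, a fusion of Gata4 with the hormone-binding part of the glucocorticoid receptor, expressed from the CAG promoter. Dnmt3a and Dnmt3b are the de novo methyltransferases, which methylate CpGs that carried no mark before. Flk1(+) cells, sorted with magnetic beads after 4.5 days of differentiation on OP9 stroma cells, had received 100 nM dexamethasone (Dex), which activates Gata4GR, for 3 hr, and the undifferentiated WT ES and DKO ES cells, also with Gata4GR but without Dex, served as the background of their own genotype.

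The labels give clone J1G4.2 for the WT Flk1(+) library, for which the paper has a longer name, and clone 16G4.3 for the DKO Flk1(+) library, 1 clone for each genotype, so genotype, clone and library cannot be told apart. Peak lists hold no expression values, and the Flk1(+) label was not checked against marker genes. The height of a peak is the authors' smoothed read profile at its position, and the ratio is that height over the ES height, with an ES height below 1 taken as 1. The lists give no read totals, and the methods of the study give more mapped reads for the DKO than for the WT Flk1(+) library, while any scaling of the heights to depth is not given in the sources used here. A peak was called shared when the nearest position of the other list lay within 500 bp.

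The peaks with the Gata motif WGATAA (W is A or T) that were highest at each gene are printed here, since they let the motif be seen in its surroundings. Each line gives the gene, the mm9 interval and the list, and the sequence is the plus strand from 5′ to 3′. Capitals mark WGATAA or its reverse complement where the whole motif is inside the stretch. Most lines are 121 bases around the peak position. The lines of *T*, *Tbx6* and *Tbx18* are 30 bases around the motif and do not reach the peak positions, which are 8661856, 133920227 and 87626246. A second *Tbx2* peak, chosen after its values were seen, is added because it had the best score of all member peaks, and *Tbx3* has no line because no peak within 50 kb of it held the motif.
T, chr17:8661687-8661716, WT peak: agggaggcacgtTTATCAgctgtctcagac
Eomes, chr9:118396753-118396873, WT peak: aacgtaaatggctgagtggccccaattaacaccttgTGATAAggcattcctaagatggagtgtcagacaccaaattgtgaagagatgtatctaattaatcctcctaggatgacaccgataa
Tbx6, chr7:133920178-133920207, WT peak: gggtttgcatacAGATAAcacgctcttatt
Tbx5, chr5:120325583-120325703, WT peak: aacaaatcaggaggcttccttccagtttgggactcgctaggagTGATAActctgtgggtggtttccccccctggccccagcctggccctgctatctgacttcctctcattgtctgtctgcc
Tbx20, chr9:24586822-24586942, WT peak: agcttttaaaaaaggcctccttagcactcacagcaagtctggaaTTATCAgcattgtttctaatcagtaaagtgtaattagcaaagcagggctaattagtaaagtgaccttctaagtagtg
Tbx2, chr11:85617721-85617841, WT peak: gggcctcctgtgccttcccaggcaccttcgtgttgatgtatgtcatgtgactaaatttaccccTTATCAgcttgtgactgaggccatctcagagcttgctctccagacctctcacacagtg
Tbx2, chr11:85631932-85632052, WT peak: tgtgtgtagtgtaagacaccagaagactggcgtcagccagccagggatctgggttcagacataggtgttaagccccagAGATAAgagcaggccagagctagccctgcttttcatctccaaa
Tbx1, chr16:18577756-18577876, WT peak: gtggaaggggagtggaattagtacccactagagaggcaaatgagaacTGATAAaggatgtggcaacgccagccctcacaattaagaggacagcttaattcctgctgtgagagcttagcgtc
Tbx18, chr9:87626330-87626359, WT peak: ctcaggcttttcTTATCAggaccaggaaag
Tbx4, chr11:85702268-85702388, DKO peak: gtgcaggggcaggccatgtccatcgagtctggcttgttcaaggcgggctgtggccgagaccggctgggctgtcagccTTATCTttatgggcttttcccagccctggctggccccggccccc

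*Tbx2*, the repressor of muscle genes in the atrioventricular canal, was the gene with the most Gata4 peaks of the 10, with 14 WT and 12 DKO peaks within 50 kb. Of all protein-coding genes, 0.283% had at least as many WT peaks and 2.26% at least as many DKO peaks within this distance. The gene lies at chr11:85646053-85655450 on the plus strand, and the 3 highest peaks of both lists lay upstream of it, inside the 3′ introns of *Bcas3*. At 14061 bp upstream, in intron 26 of *Bcas3*, the WT list had a peak of height 41.1 over an ES height of 1.62, ranked 16 of 20410 by score. The DKO list had its peak 9 bp away with a height of 16.5, ranked 228 of 22733. At 28272 bp upstream, in intron 25, the heights were 42.0 in WT and 26.0 in DKO cells, with positions 1 bp apart. The ranks there were 310 in the WT and 129 in the DKO list. At 32527 bp upstream, in intron 24, the heights were 22.2 in WT and 22.8 in DKO cells, and the window held 4 WGATAA motifs. Its ranks were 939 in the WT and 67 in the DKO list. These 3 places were thus high in both lists, and the WT to DKO order of heights was not the same at each of them.

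Nearer to *Tbx2*, a pair of neighbouring shared positions lay 5008 and 4787 bp upstream, each window with 3 WGATAA motifs. The WT heights there were 21.3 and 11.2, and the DKO heights 12.7 and 7.48. The ranks were 2879 and 10622 in the WT list and 631 and 4028 in the DKO list. From 836 to 1199 bp upstream of the start site were 2 peaks in each list, with WT heights of 9.41 and 7.33 and DKO heights of 6.18 and 6.90, all shared. The remaining peaks within 5 kb were in 1 list only. In WT cells these were a peak of height 9.38 at 2660 bp upstream, a peak of height 5.10 in coding exon 1 with 58 CpGs in its window of about 500 bp, and a peak of height 7.67 at 326 bp past the gene end. In DKO cells these were 3 peaks between 1634 and 2705 bp past the gene end, with heights of 7.44, 6.22 and 6.34, with 25 to 38 CpGs and without WGATAA. Another 4 WT peaks, 9061 to 31882 bp upstream, had heights of 5.04 to 9.31 and were not shared. All shared peaks at *Tbx2* thus lay upstream of the gene, and the peaks past its end were each in 1 list only.

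*Tbx4*, the neighbour of *Tbx2* at chr11:85699924-85729599, had 5 DKO peaks within 50 kb and 1 WT peak. All 6 also lay within 50 kb of *Tbx2* and were counted once in the totals. No WT peak lay within 5 kb of *Tbx4*, whereas the DKO list had 2 in its introns, with heights of 5.72 and 5.05, and 2 and 1 WGATAA motifs. Both were close to the lowest height in the lists, 5.00, and the nearest WT peak was 46552 bp or more away.

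*Tbx3*, the repressor that marks the conduction system, had 3 WT and 2 DKO peaks within 50 kb, and none of these held WGATAA. At the 5′ UTR of *Tbx3* (chr5:120120678-120134733, plus strand) the positions were 42 bp apart, with a height of 9.66 in WT and 7.00 in DKO cells and 40 and 41 CpGs. A further WT peak of height 6.90 lay 1889 bp upstream. The DKO peak away from the gene had a height of 5.20 and lay 27738 bp past its end, and the third WT peak had a height of 6.69 and lay 26643 bp upstream.

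**Figure D1:**
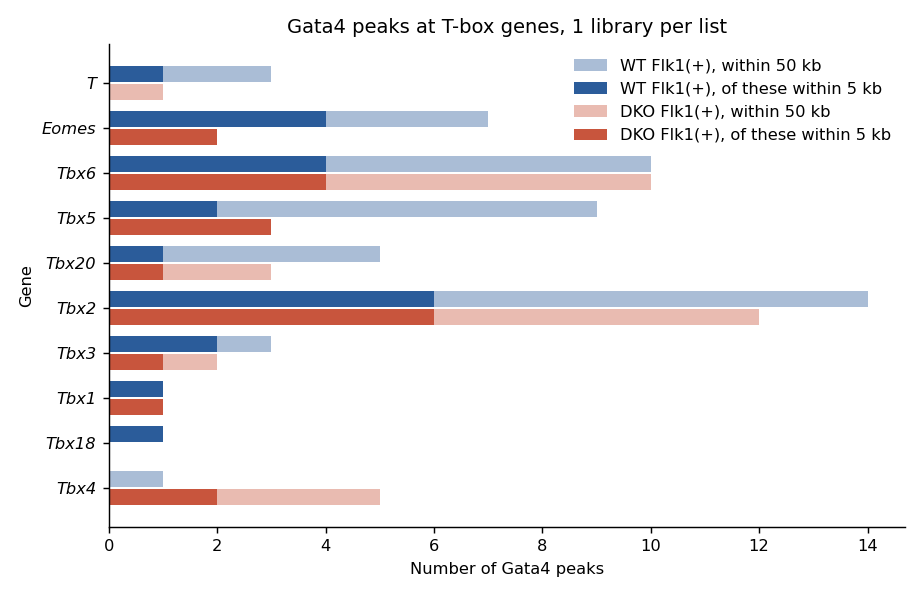
Number of Gata4 peaks (x axis) at each T-box gene (y axis), in the WT (blue) and DKO (red) Flk1(+) list. Full bars are peaks within 50 kb of the gene and their dark part those within 5 kb; *Tbx2* had 14 WT and 12 DKO peaks, *Tbx5* 9 and 3, and *Tbx18* 1 and 0, and peaks in both the *Tbx2* and *Tbx4* windows are drawn at both genes.

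*Tbx5*, the partner of Gata4 in the activation of heart muscle genes, had 9 WT peaks within 50 kb but 3 DKO peaks. Of all genes, 1.71% had at least as many WT peaks and 43.2% at least as many DKO peaks. All 3 DKO peaks lay in intron 8 of *Tbx5* (chr5:120284672-120335227, plus strand), near its 3′ end, and all 3 were shared with the 2 WT peaks there. The higher of these, 40971 bp from the 5′ end, had a height of 21.8 in WT and 14.3 in DKO cells, with 3 WGATAA motifs and 4 CpGs. It ranked 1820 in the WT and 411 in the DKO list. The other pair, 83 bp apart, had a height of 12.1 in WT and 5.93 in DKO cells. The third DKO position, between these, had a height of 5.17.

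The remaining 7 WT peaks at *Tbx5* had no DKO peak within 20 kb, and their heights ran from 6.42 to 16.6. Of these, 6 lay upstream of the gene, and the highest was 39330 bp upstream in a cluster of 4 peaks that spanned about 2 kb. The peak 11296 bp upstream had a height of 14.9 over an ES height of 0.506, with 3 WGATAA motifs, and the nearest DKO peak lay 51695 bp away. The lists hold no DKO value at these places, so a difference in signal was not tested.

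*Tbx20*, another cardiac partner of Gata4, had 5 WT and 3 DKO peaks within 50 kb, and all 3 DKO peaks were shared. At the start site (chr9:24527648-24578746, minus strand) the positions were 34 and 27 bp upstream, with a height of 13.0 in WT and 14.1 in DKO cells, 39 and 40 CpGs and no WGATAA. The ES heights at this place were 4.21 and 3.19, the highest ES heights at any member peak of either list. The ranks were 15104 in the WT and 4868 in the DKO list. At 8136 bp upstream, a window with 2 WGATAA motifs and 3 CpGs had a height of 16.8 in WT cells, ranked 617, and of 5.81 in DKO cells, ranked 10336. The third pair, 7035 bp upstream, had heights of 9.26 and 6.02, and ranks of 17741 in WT and 9044 in DKO cells. By height, the start site was thus slightly higher in the DKO list. The upstream sites, with 27 and 3 CpGs in their WT windows, were of greater height in the WT list. The other 2 WT peaks lay 13510 and 37420 bp upstream with heights of 7.54 and 5.38.

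*Eomes*, a factor of the primitive streak and the earliest cardiac mesoderm, had 7 WT and 2 DKO peaks within 50 kb. Both DKO peaks were shared and lay just past the 3′ end of the gene (chr9:118387330-118395250, plus strand). At 1563 bp past the end, the height was 19.6 in WT cells, ranked 392, and 8.32 in DKO cells, ranked 2724, with 1 WGATAA motif and 23 CpGs. At 929 bp past the end, the heights were 10.6 and 6.45. The WT peak there had an ES height of 3.40 and a ratio of 3.10, close to the lowest ratio in the list, and ranked 17873. The DKO peak had a ratio of 4.26 and ranked 6970. The WT list had 2 more peaks within 5 kb, at 2510 and 3581 bp past the end, with heights of 5.03 and 5.09 and no WGATAA. It also had 3 peaks from 30717 to 33329 bp upstream, each with 1 WGATAA motif and the highest at 9.97, and the nearest DKO peak lay 39578 bp or more away.

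*T*, which encodes Brachyury, had 3 WT peaks and 1 DKO peak within 50 kb. The peak at its start site (chr17:8627288-8635361, plus strand), 296 bp upstream with 39 CpGs and no WGATAA, was in the WT list at a height of 6.20, and the nearest DKO peak lay 12343 bp away. The shared peak lay 12585 bp upstream, within 5 kb of *T2*, with a height of 7.38 in WT and 5.49 in DKO cells. The third WT peak had a height of 7.57 and lay 26495 bp past the gene end.

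*Tbx6*, the factor of paraxial mesoderm, had 10 peaks in each list within 50 kb, and 7 of the WT and 8 of the DKO peaks were shared. Its window is dense in genes, and most of these positions were in or beside *Ypel3*, *Gdpd3*, *Ppp4c*, *Aldoa* and *Fam57b*, so a peak cannot be ascribed to *Tbx6*. The highest WT peak, 4770 bp upstream of *Tbx6* (chr7:133924997-133929074, plus strand) in the 5′ UTR of *Gm9967* and beside the start of *Ypel3*, had a height of 22.5 in WT and 7.97 in DKO cells. The other 3 pairs within 5 kb were low in both lists. The WT heights at 4440, 1436 and 639 bp upstream were 5.73, 5.04 and 5.63. The DKO heights there were 5.17, 7.06 and 5.80. At the starts of *Ppp4c* and *Aldoa* the paired peaks had WT heights of 8.54 and 8.14 and DKO heights of 9.19 and 9.31. The highest DKO peak, at 9.69, lay 23701 bp past the end of *Tbx6*, had 33 CpGs and no WGATAA, and was not shared, like a second DKO peak of height 5.53 near *Fam57b*.

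Another 3 shared positions near *Tbx6* were the second position of a place that already had a pair. In the WT list this was a peak of height 6.20 beside *Ppp4c*, and in the DKO list these were peaks of height 6.96 in an intron of *Ppp4c* and 7.92 in the 5′ UTR of *Aldoa*. The 3 WT peaks that were not shared had heights of 5.59, 9.42 and 6.48.

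*Tbx1*, the outflow tract factor, had 1 peak in each list, at the same position 3990 bp past the end of the gene (chr16:18581806-18588113, minus strand). Its height was 22.3 in WT cells, ranked 1869, and 6.51 in DKO cells, ranked 6697, with 1 WGATAA motif and 4 CpGs. *Tbx18*, the factor of the sinus venosus and epicardium, had 1 WT peak of height 5.74 at 151 bp upstream of its start site (chr9:87597635-87626095, minus strand), with 1 WGATAA motif and 20 CpGs. The nearest DKO peak lay 475909 bp away, so *Tbx18* was the 1 gene of the 10 without a DKO peak within 50 kb.

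**Figure D2:**
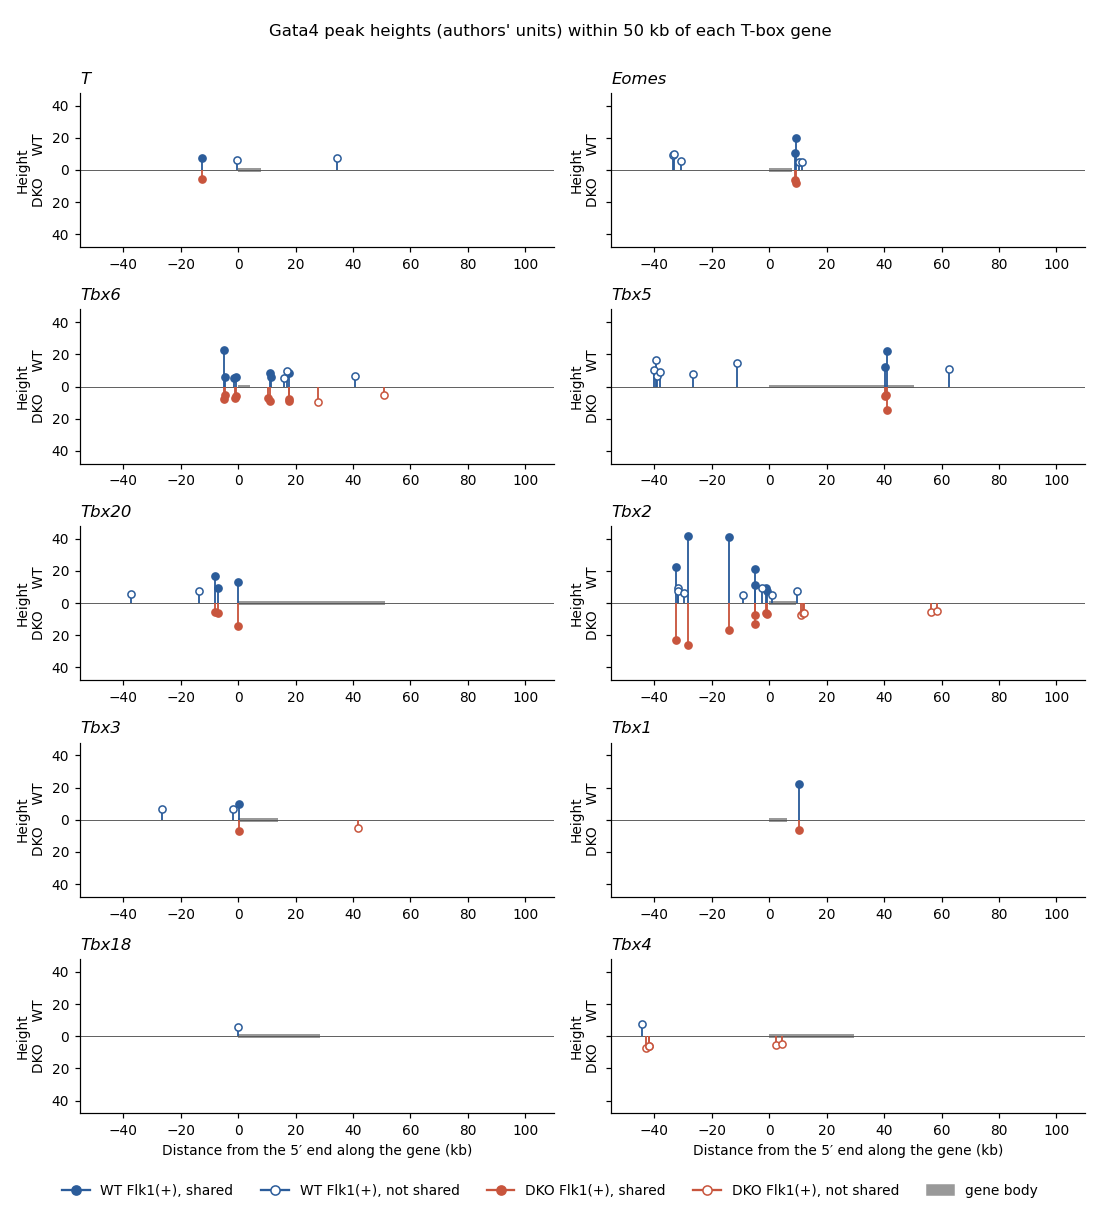
Gata4 peaks within 50 kb of each T-box gene, by distance from the 5′ end of the gene along its direction (x axis, kb) and height in the authors' units (y axis, WT up in blue, DKO down in red). Filled circles are shared peaks, open circles are not shared, and grey bars are gene bodies; the DKO peaks of *Tbx5* all lay within the gene body, while 7 of its 9 WT peaks lay outside it.

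Counted by gene, 9 of the 10 T-box genes had a WT peak within 5 kb and 8 had a DKO peak, 7 of them in both lists. Over all protein-coding genes these shares were 39.4% for WT and 49.1% for DKO cells. Within 50 kb, 10 genes had a WT peak and 9 a DKO peak, against 67.1% and 70.4% of all genes. Across the family, 7 of the 10 genes had more WT than DKO peaks within 50 kb. The same share was not computed over all genes. The DKO list was the longer of the 2, but 49.9% of its peaks lay within 1 kb of a start site, against 27.9% of the WT peaks.

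Grouped by role, the 2 cardiac partners of Gata4, *Tbx5* and *Tbx20*, had 14 WT and 6 DKO peaks within 50 kb, with 12 and 5 of them holding WGATAA. Their median height was 10.9 in WT and 5.98 in DKO cells. The heart repressors, *Tbx2* and *Tbx3*, had 17 WT and 14 DKO peaks, with median heights of 9.31 and 6.95. The mesoderm factors, *T*, *Eomes* and *Tbx6*, had 20 WT and 13 DKO peaks, with median heights of 6.93 and 7.06, and 10 and 3 of these held WGATAA. Of these peaks, 10 WT and 10 DKO lay in the gene-dense *Tbx6* window, where a peak cannot be ascribed to *Tbx6*. Over all peaks the median heights were 7.74 in WT and 6.91 in DKO cells, and 61.9% and 38.1% held WGATAA. *Tbx1*, *Tbx18* and *Tbx4* had 3 WT and 6 DKO peaks and were the 1 group with more in the DKO list. Of these, 1 WT and 5 DKO peaks lay in the *Tbx4* window and were also counted with *Tbx2* above, and 3 of the 5 lay just past the end of *Tbx2*.

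Of the 34 DKO peaks at T-box genes, 26 (76.5%, 95% Wilson interval 60.0 to 87.6) were shared, against 45.1% of all DKO peaks. Of the 53 WT peaks, 24 (45.3%, 32.7 to 58.5) were shared, against 45.6% of all WT peaks. The WT share was thus close to that of its list, and the DKO share lay above that of its list. The shared peaks of both lists are the same places, so the shares differ mainly by the 53 and 34 peaks they are taken over. The intervals reflect only the counting of peaks in a single library, and peaks at a locus are not independent of each other. Without *Tbx2* and *Tbx4*, whose windows overlap, 86.4% of the DKO peaks were shared, and without *Tbx6* 75.0% were. With a limit of 100 bp, 55.9% of the DKO peaks were shared, against 31.2% of all DKO peaks.

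Shared peaks at T-box genes were higher than the others in both lists. The median WT height was 10.9 for the 24 shared peaks and 7.50 for the 29 others. The median DKO height was 7.03 for the 26 shared peaks and 5.97 for the 8 others. The same order held over whole lists, where the medians were 10.1 and 6.69 in WT and 7.82 and 6.40 in DKO cells. By the ratio of height to ES height, the WT order was the reverse. Its medians were 4.76 for the shared WT peaks at T-box genes and 5.33 for the others, and 4.37 and 4.68 over the whole WT list. In DKO cells these medians were 5.07 and 3.80 at T-box genes, and 4.90 and 4.09 over the whole list.

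In all, 22 pairs of a WT and a DKO peak, each the nearest of the other and within 500 bp, lay at the T-box genes. The WT peak was the higher in 16 of these (72.7%), against 71.9% of all 8489 pairs. The median ratio of WT to DKO height was 1.51, with quartiles of 0.994 and 1.95, against 1.24 with quartiles of 0.967 and 1.72 over all pairs. The ES heights, from cells without Dex, were also higher in WT at 20 of the 22 pairs (90.9%) and at 75.7% of all pairs. Their part in the Flk1(+) ratios was not tested. By the ratio of height to ES height, many pairs had the opposite order. This ratio was 11.3 in WT and 14.9 in DKO cells at the *Tbx2* peak in intron 25 of *Bcas3*. At the higher *Tbx5* pair it was 6.99 and 9.72. It stayed higher in WT at *Tbx1*, with 6.76 and 4.97, and at the *Tbx2* peak in intron 26, with 25.4 and 13.0. The order by this ratio was not computed over all pairs.

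The highest ratio of WT to DKO height was 3.43 at *Tbx1*, above 98.2% of all pairs. It was 2.90 at the upstream *Tbx20* peak, 2.83 at the peak beside the start of *Ypel3*, near *Tbx6*, 2.49 at the best-scoring *Tbx2* peak and 2.36 at the 3′ peak of *Eomes*, above 95.7%, 95.1%, 91.6% and 89.7% of all pairs. Each of these 5 places held WGATAA. The lowest ratio was 0.715, at *Ypel3* upstream of *Tbx6*, and the other ratios below 1 were at the start sites of *Tbx20*, *Ppp4c* and *Aldoa*, at 639 bp upstream of *Tbx6* and at the *Tbx2* peak in intron 24 of *Bcas3*. Of these 6, the *Tbx2* peak was the only one with WGATAA in its WT window, and the pair with the lowest ratio held 1 in its DKO window. Of the 24 shared WT peaks at T-box genes, 62.5% held the motif, and a link between motif and ratio was not tested.

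**Figure D3:**
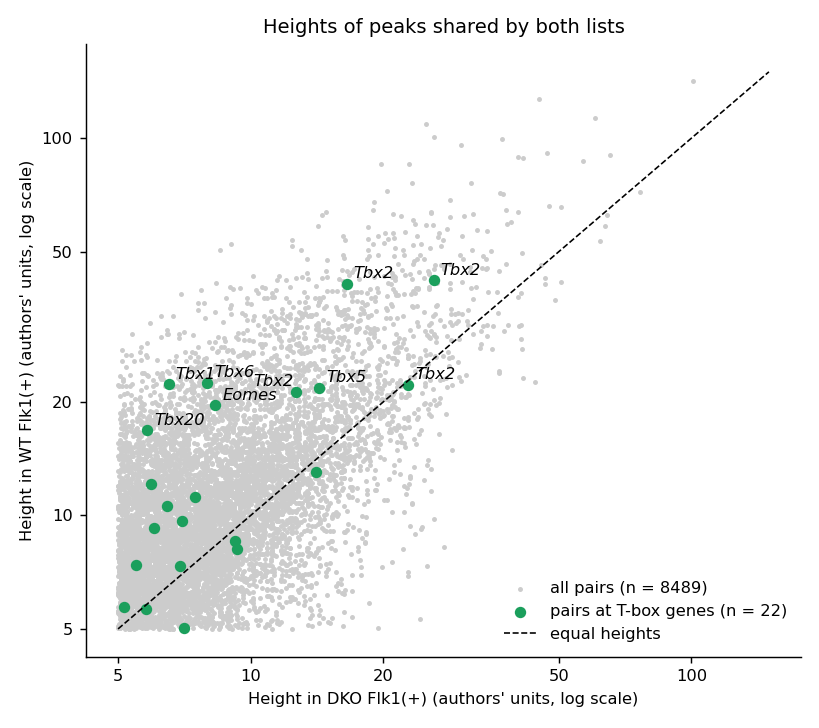
Heights of paired Gata4 peaks in the DKO (x axis) and WT (y axis) Flk1(+) lists, in the authors' units on log axes. Green points are the 22 pairs at T-box genes, with the higher ones named, grey points are all 8489 pairs, and the dashed line marks equal heights; 16 of the 22 lie above the line, as do 71.9% of all pairs.

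The motif WGATAA was found on either strand in the windows of 33 of the 53 WT peaks (62.3%, 48.8 to 74.1) and 17 of the 34 DKO peaks (interval 34.1 to 65.9%). Over all peaks these shares were 61.9% in WT and 38.1% in DKO cells, the latter within the interval of the members. Among shared DKO peaks, 15 of 26 held the motif, and among those not shared 2 of 8 did, both in *Tbx4*. Among WT peaks, 15 of 24 shared and 18 of 29 others held it, so the shares were close to each other. The sequence GGTGTGA, a short sequence read by T-box factors, was in 6 of the 53 WT windows (11.3%) and 3 of the 34 DKO windows (8.82%), against 12.0% and 7.83% of all windows, and was thus near its background in both lists.

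Peaks with the motif held fewer CpGs than the others, at T-box genes and over the whole lists. In WT cells, the 33 peaks with WGATAA had a median of 10.0 CpGs per window and the 20 without it 18.5, against 6 and 27 over all WT peaks. In DKO cells, the 17 with the motif had a median of 7.00 CpGs and the 17 without it 33.0, the same as the medians over all DKO peaks. The medians over all members were 12.0 in WT and 19.5 in DKO cells, against 8.00 and 21.0 over all peaks. Start sites were among the CpG-rich places, and 15 of 53 WT peaks (28.3%) and 12 of 34 DKO peaks (35.3%) lay within 1 kb of a protein-coding start site, against 27.9% and 49.9% of all peaks. The intervals were 18.0 to 41.6 for WT and 21.5 to 52.1 for DKO peaks, and both held the value of the whole list.

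The best-scoring peaks at T-box genes were mostly motif-bearing and away from start sites, as over the whole lists. Of the 2041 best-scoring WT peaks, 10% of the list, 9 were at T-box genes, and all 9 held WGATAA and none lay within 1 kb of a start site, against 88.8% and 8.48% of all 2041. Of the 2273 best-scoring DKO peaks, also 10%, 6 were at T-box genes, of which 5 held WGATAA and none lay within 1 kb of a start site, against 65.6% and 32.2% of all 2273. By height the picture was less even, since the WT peak of height 22.5 beside *Ypel3* and the DKO peak of height 14.1 at *Tbx20* lay 105 and 27 bp from a start site. The 9 WT and 6 DKO peaks among the best-scoring were 17.0% of the WT and 17.6% of the DKO peaks at these genes. For the lists this value is 10% by construction. The median height was 8.54 in WT and 6.93 in DKO cells, against 7.74 and 6.91 over all peaks.

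**Figure D4:**
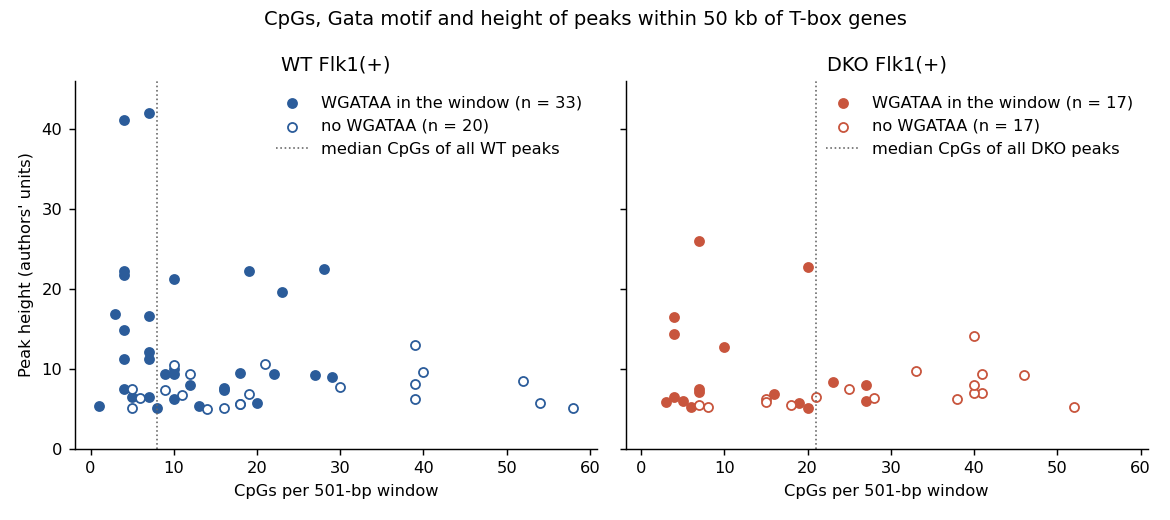
CpGs per window of about 500 bp (x axis) and height in the authors' units (y axis) of each Gata4 peak within 50 kb of a T-box gene, WT on the left and DKO on the right. Filled circles hold WGATAA, open circles do not, and the dotted line is the median CpG number of all peaks of the list, 8.00 in WT and 21.0 in DKO cells; the highest points of both panels are filled and most of the points at high CpG numbers are open.

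Of 7 other genes of the family, *Tbr1*, *Tbx10*, *Tbx15*, *Tbx19*, *Tbx21*, *Tbx22* and *Mga*, 2 had a WT peak within 5 kb (28.6%) and 3 a DKO peak (42.9%), against the 39.4% and 49.1% of all genes given above. *Mga*, whose product joins a T-box with a domain that pairs with Max, had peaks of both lists, at heights of up to 9.71 in WT and 9.51 in DKO cells. *Tbr1* had a WT peak of height 5.30, and *Tbx10* and *Tbx21* had DKO peaks of heights up to 10.2 and 5.16.

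A further 28 genes that T-box factors control or work with ran from *Mesp1* and *Wnt3* in the streak to *Nkx2-5*, *Nppa* and *Gja5* in the heart. Of these, 23 (82.1%) had a WT peak within 5 kb and 20 (71.4%) a DKO peak, against 39.4% and 49.1% of all genes. The 28 were chosen with earlier results of these data known, so their shares are only descriptive. Both lists had a peak at 17 of the 28 genes, WT alone at 6, DKO alone at 3 and neither at 2. *Gja5*, a connexin of the conduction system that Tbx5 activates, had the highest peak, 60.7 in WT and 23.3 in DKO cells with 3 WGATAA motifs. The *Gja5* entry used here spans chr3:96708616-96881339, and the WT peak lay inside it at 96775116. How far this peak lay from the *Gja5* start site is not given here. *Fgf10*, a growth factor of the second heart field, followed with 40.2 and 24.0. *Isl1*, a factor of the same progenitors, had 30.3 and 5.38 at neighbouring places by its start site. *Wnt3*, the signal that starts the primitive streak, had 23.0 and 7.15, *Mesp1*, the factor of early cardiac mesoderm that Eomes activates, had 17.8 and 6.31, and *Smyd1*, a muscle methyltransferase, had 17.0 and 8.63. These 6 were named for the greatest height in either list, which was the WT height at each, so their order between the lists says nothing further. Of the 17 genes with a peak in both lists, the highest WT peak was above the highest DKO peak at 15. The same share was not computed over all genes, and the WT height was the higher in 71.9% of all pairs. The exceptions were *Nodal*, at 7.57 in WT and 8.45 in DKO cells, and *Fgf8*, at 10.7 and 13.0. At each of these genes the highest WT and DKO peaks lay more than 500 bp apart, so they were not 1 shared place.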

How the data were processed

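Peaks of Gata4 ChIP-seq in WT and DKO Flk1(+) cells were taken from the 2 deposited lists, which do not name their libraries and were assigned by the number of peaks given in the study's methods. Per the labels, CASAVA 1.8.1 and cutadapt were used and the build was mm9; the aligner is not given in the sources used here. The authors called peaks with DNAnexus tools on each Flk1(+) library over the ES library of its genotype, and the lists start at a height of 5.00 and a ratio of 3.00. The authors' values are a signal (the profile height in each library), the ratio of the heights, the −log10 of a q-value and a rank used as the score.

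Here, peaks were assigned by distance to GENCODE vM1 protein-coding genes, the longest entry for a repeated symbol. All 87 windows of the peaks at the T-box genes matched mm9. Motifs were searched on both strands and CpGs counted in the deposited sequence of about 500 bp around each position. Shares carry Wilson 95% intervals. With 1 library for each condition no test was run. Steps were tested on simulated data. All 10 genes were named with every peak within 5 kb, and farther out every shared peak and the highest of each list. The genes and lists were chosen with earlier results of these data known. Alternatives were other distances, limits for shared peaks, motifs and windows, and the better-scoring 50% of each list; leaving out genes was added after seeing the data. The software was pandas 2.3.3 and NumPy 2.4.6 in Python 3.11.15, with SciPy 1.17.1 and Matplotlib 3.10.9.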

Additional observations from a re-analysis of the deposited data

How the results depend on the processing

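Of 46 alternatives, 37 kept a count within 1.5 times, a share within its interval or a median within the spread of the peaks, and 9 moved beyond these. Counted from the start site in place of the gene body, 14 WT and 11 DKO peaks lay within 5 kb. In the better-scoring 50% of each list there were 7 WT and 13 DKO peaks within 5 kb and 25 WT and 21 DKO peaks within 50 kb, a setting that removes peaks by its construction. The order of the lists within 5 kb was thereby the opposite of that over all peaks, 22 WT and 20 DKO. Without *Tbx2* and *Tbx4* there were 22 DKO peaks within 50 kb. The shared part of the WT peaks was 61.1% within 20 kb, where the cause was not tested, and that of the DKO peaks 55.9% at 100 bp, a stricter limit by construction. No paired analysis was possible because each condition had 1 library. Depth is not in the lists, so a place without a peak in 1 list may hold signal below the lowest height, and the higher WT and DKO counts at single genes cannot be told apart from a difference between the libraries.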

Other observations

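The stretches between neighbouring family members differed in what they held, as noticed after the values were seen. The 149938 bp between *Tbx3* and *Tbx5* held 7 WT peaks, 6 with WGATAA and 1 shared, with heights up to 16.6, and 2 DKO peaks with heights up to 5.70. The 44473 bp between *Tbx2* and *Tbx4* held 1 WT and 3 DKO peaks, none shared and none with WGATAA, and all 4 lay nearer to *Tbx2*.

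Some of the highest peaks lay beyond the 50 kb limit, between 50 and 100 kb from a gene. From 50 to 100 kb from *Eomes* there were 6 WT peaks, the highest at 42.5, and 1 DKO peak at 14.5. From 50 to 100 kb from *Tbx20* each list had 2 peaks, all shared, with heights up to 29.8 in WT and 14.9 in DKO cells. *Tbx1* had 2 peaks of each list there, the highest at 13.5 in WT and 16.0 in DKO cells, and *Tbx18* had none in either list.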
